A study of Rattus norvegicus with 6 samples.

Results

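The genes described here make the acid-base machinery of the intercalated cells of the kidney: the proton pump subunits Atp6v1b1, Atp6v1c2, Atp6v1g3, Atp6v0d2 and Atp6v0a4, the anion exchangers Slc4a1, Slc4a9 and Slc26a4, the transcription factor Foxi1 and the ammonia channel Rhcg. These 10 of the 15284 genes named on the arrays were chosen by symbol. They were chosen with their difference between treated and control rats already known, so that difference is given for them as a description, with no test. Of the 10 genes, 9 had a named probe and all 9 were measured well above background on all 6 arrays, with 16 probes between them. Atp6v0a4 had no probe named through its accession and is not analysed here.

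Each of 6 single-colour Agilent arrays measured renal cortex RNA of 1 rat, a male of the outbred Sprague-Dawley stock that had been purchased at an age of 5 weeks. The 3 vehicle rats received corn oil and the 3 TCEP rats received the flame retardant tris(2-chloroethyl)phosphate at 400 mg/kg/day, each for 4 weeks. The cortex is a mixture in which proximal tubules predominate and intercalated cells are a minority, so a signal here is an average over many cell types. Between 67.2% and 69.3% of the 61657 probes were well above background per array. All vehicle arrays lay on 1 slide with 1 scan time and all TCEP arrays on another, so slide and treatment cannot be told apart in any comparison below. Below, a level is the log2 signal of a gene minus the log2 75th percentile of its array, and a difference is the TCEP mean level minus the vehicle mean level.

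Intercalated cells lie in the connecting tubule and collecting duct and set the final acidity of urine. Their proton pump, the vacuolar ATPase, has a cytosolic V1 sector that splits ATP and a membrane V0 sector that carries protons, and several subunits come in an isoform used by most cells and another concentrated in intercalated cells. Type A cells pump acid into the urine and return bicarbonate to the blood through the exchanger AE1 (Slc4a1). Type B cells secrete bicarbonate through pendrin (Slc26a4) and carry AE4 (Slc4a9). Foxi1 is needed for the intercalated fate, and Rhcg passes ammonia into the urine. Inherited loss of ATP6V1B1, ATP6V0A4, SLC4A1 or FOXI1 is known in people to cause distal renal tubular acidosis, and loss of SLC26A4 causes Pendred syndrome.

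Of the 9 measured genes, 8 had a lower mean in TCEP-treated cortex, and the median difference was -0.29. Among all 11804 genes tested 47.5% had a lower mean (36.1% without scaling between arrays), and the median was 0.01. For 7 of the 9 every TCEP array lay below every vehicle array, which held for 6.97% of all genes in that direction, 8.63% in the other and 15.6% in either. Since these genes were chosen with this comparison in view, nothing is read from that count. It was 6 without scaling (3.87% of all genes) and 4 when the background was instead corrected by normexp (9.63%). In bulk tissue, fewer cells of a type and less RNA per cell cannot be told apart.

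**Figure D1:**
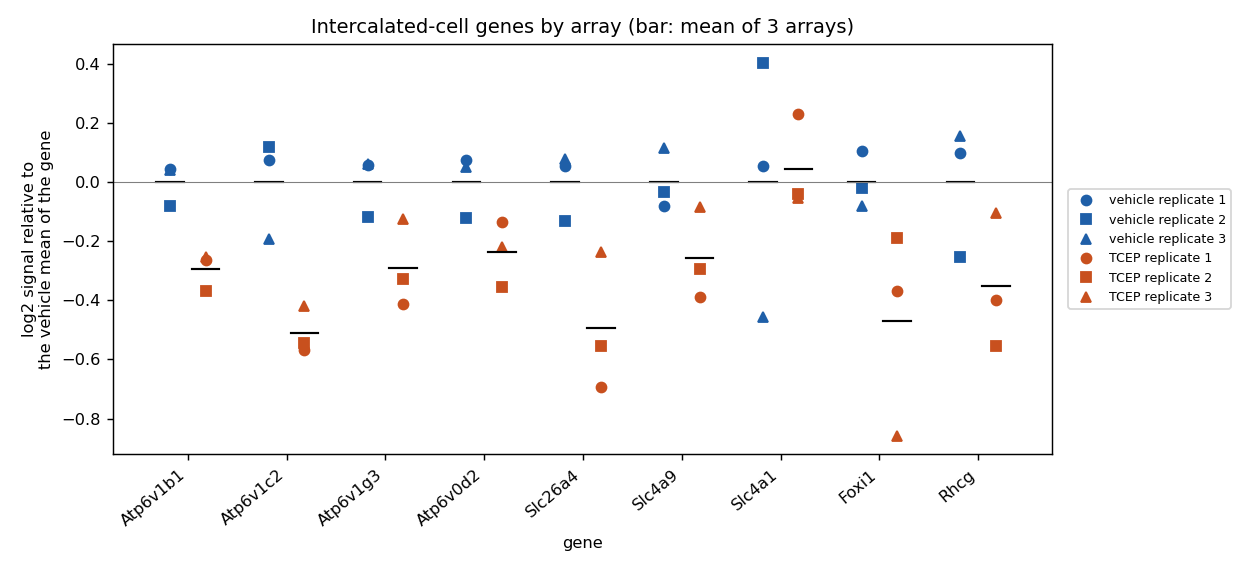
Log2 signal of the 9 measured genes on each array (y axis), relative to the vehicle mean of the gene. Blue symbols are the 3 vehicle arrays, orange symbols the 3 TCEP arrays, and bars are group means. The TCEP means lie between -0.51 and -0.24 for 8 genes and at 0.05 for Slc4a1, whose vehicle arrays spread most widely.

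The 4 pump subunits that are concentrated in intercalated cells were all lower. Atp6v1b1 encodes the B1 subunit, which forms the ATP-binding sites together with subunit A. Its level was 3.77, 3.64 and 3.76 on the vehicle arrays and 3.46, 3.35 and 3.47 on the TCEP arrays. The groups did not overlap, and the arrays within a group lay closer together than for any of the other 8 genes, with an SD of 0.07 in vehicle and 0.06 in TCEP. The difference was -0.29 (SE 0.07), or 81.5% of the vehicle signal, and it was -0.43 with normexp. Atp6v1c2 encodes a C subunit, which holds the V1 and V0 sectors together. It lay at 0.95, 0.99 and 0.68 in vehicle and at 0.31, 0.33 and 0.46 in TCEP, again without overlap. Its difference of -0.51 (SE 0.10), or 70.2% of vehicle, was the farthest from 0 of the 9.

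Atp6v1g3 encodes a G subunit of the stalk that keeps the pump's outer ring from turning. The vehicle arrays read 6.09, 5.91 and 6.09 and the TCEP arrays 5.61, 5.70 and 5.90. TCEP replicate 3 came within 0.01 of vehicle replicate 2, the lowest control, and the difference was -0.29 (SE 0.10). Atp6v0d2 encodes a d subunit, which joins the rotor of the V0 sector to the V1 sector. It was at 2.74, 2.54 and 2.72 in vehicle and at 2.53, 2.31 and 2.45 in TCEP, a difference of -0.24 (SE 0.09) and of -0.13 with normexp. Here too the groups were adjacent, with TCEP replicate 1 just under vehicle replicate 2.

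Most cells use common isoforms of these subunits, and the common partners of the 4 lay near 0. The partner isoforms of the 4 genes were Atp6v1b2 at 0.02 (SE 0.13, limma adjusted p = 0.979), Atp6v1c1 at 0.05 (SE 0.22, adjusted p = 0.962), Atp6v1g1 at 0.06 (SE 0.07, adjusted p = 0.836) and Atp6v0d1 at 0.03 (SE 0.06, adjusted p = 0.909). Atp6v1g1 was above 0 in every setting tried, while Atp6v1b2, Atp6v1c1 and Atp6v0d1 turned negative in some, Atp6v1b2 reaching -0.13 with normexp and Atp6v0d1 -0.003 with quantile normalization. Atp6v0a1, the common partner of the unmeasured Atp6v0a4, was at 0.09 (SE 0.09, adjusted p = 0.802), and 1 of its 3 probes was at -0.19. The log2 ratio of each of the 4 measured pairs within an array is given relative to its vehicle mean. No share over other gene pairs was taken. The 4 genes were chosen with this comparison in view, so nothing is read from which pairs overlap. Atp6v1g3 over Atp6v1g1 was at 0.01, -0.04 and 0.04 in vehicle and at -0.40, -0.43 and -0.22 in TCEP, without overlap. Atp6v0d2 over Atp6v0d1 was at 0.10, -0.13 and 0.03 in vehicle and at -0.16, -0.37 and -0.26 in TCEP. Its groups did not overlap but were adjacent, with TCEP replicate 1 just under vehicle replicate 2. The ratio of Atp6v1b1 to Atp6v1b2 was at 0.07, -0.07 and -0.01 in vehicle and at -0.02, -0.41 and -0.51 in TCEP. The groups overlapped at TCEP replicate 1, where Atp6v1b2 was lowest (4.39, against 4.89 on TCEP replicate 3). Atp6v1c2 over Atp6v1c1 was at -0.03, 0.36 and -0.33 in vehicle and at -0.16, -0.80 and -0.72 in TCEP. It overlapped as well, and its mean difference of -0.56 stood beside an SD of 0.35 in each group.

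Of 20 common or accessory subunits 18 were tested, and 7 of the 18 were lower and 11 higher, with a median of 0.02 that became -0.01 with quantile normalization and -0.035 without TCEP replicate 3. For 3 of the 18 every TCEP array lay below every vehicle array, against 6.97% of all genes. For 0 of the 18 every TCEP array lay above, against 8.63%. The subunits that stood lowest were all in the V1 sector. Atp6v1e1, a stalk subunit, was at 2.06, 2.00 and 2.00 in vehicle and at 1.74, 1.77 and 1.96 in TCEP, a difference of -0.20 (SE 0.08, adjusted p = 0.587). Atp6v1h, a regulatory subunit, differed by -0.16 (SE 0.08, adjusted p = 0.647) and Atp6v1f, of the rotor, by -0.13 (SE 0.07, adjusted p = 0.690; 0.06 with normexp). On the V0 side Atp6v0b, of the proton-carrying ring, was highest at 0.13 (SE 0.07, adjusted p = 0.691). With limma, 0 of the 18 passed an adjusted p of 0.05, as did 0% of all genes, and 1 of the 18 had an unadjusted p under 0.05, against 8.33% of all genes.

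**Figure D2:**
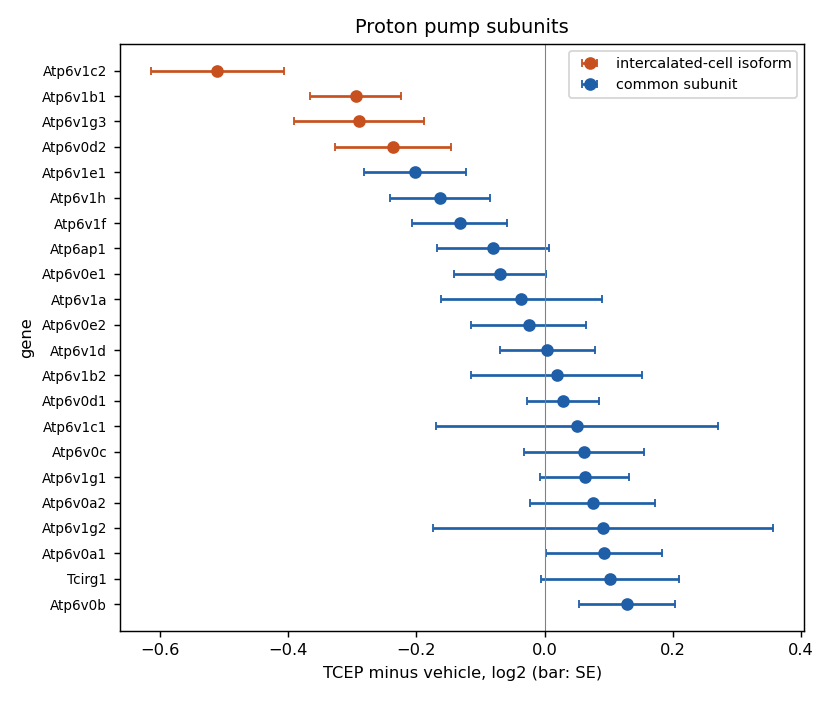
Difference between TCEP and vehicle (x axis, log2) for each measured subunit of the vacuolar ATPase (y axis), with bars for the SE of the fit. Orange points are the isoforms concentrated in intercalated cells, from -0.51 to -0.24, and blue points are the common subunits, from -0.20 to 0.13.

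Both exchangers of type B cells were lower, and the exchanger of type A cells was not. Pendrin, Slc26a4, the apical exit for bicarbonate, lay at 5.62, 5.43 and 5.64 in vehicle and at 4.87, 5.01 and 5.33 in TCEP. The groups did not overlap, TCEP replicate 3 was the highest treated rat, and the difference was -0.49 (SE 0.13), or 71.0% of vehicle. Slc4a9, which encodes AE4, read 2.22, 2.27 and 2.42 in vehicle and 1.92, 2.01 and 2.22 in TCEP. Its lowest vehicle and highest TCEP arrays were nearly equal. The difference was -0.26 (SE 0.10), and -0.12 with normexp.

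AE1, Slc4a1, is also the main exchanger of red blood cells, in an isoform with a longer N terminus. It lay at 2.94, 3.29 and 2.43 in vehicle and at 3.11, 2.84 and 2.83 in TCEP, so the treated arrays lay inside the control range. The difference was 0.05 (SE 0.23), and its sign depended on single arrays: 0.25 without vehicle replicate 2, -0.18 without vehicle replicate 3 and -0.05 without TCEP replicate 1. It was 0.22 with normexp and -0.04 as the mean over its 2 probes. The SD of 0.43 over the vehicle rats was larger than for any of the other 8 genes. The log2 ratio of pendrin to AE1 within an array was 0.00, -0.53 and 0.53 in vehicle and -0.92, -0.51 and -0.19 in TCEP. The mean ratio was lower by 0.54 with TCEP, about the SD of the vehicle arrays (0.53), and vehicle replicate 2 lay inside the treated range.

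Erythroid genes varied among the same vehicle arrays. Relative to its vehicle mean, Slc4a1 was at 0.05, 0.40 and -0.46. Hbb, a beta globin gene, was at 0.12, 0.26 and -0.37, Alas2, the first enzyme of heme synthesis in red cells, at 0.16, 0.42 and -0.57, and Ahsp, a chaperone of alpha globin, at -0.03, 0.95 and -0.92. All 4 were highest on vehicle replicate 2 and lowest on vehicle replicate 3. On the TCEP arrays Slc4a1 was at 0.23, -0.04 and -0.05 and Alas2 at -0.45, -0.37 and -0.13, in a different order. Of 13 erythroid markers 9 were tested and 7 of the 9 were lower (median -0.13). The list mean lay between -0.31 and 0.24 in vehicle and between -0.15 and -0.08 in TCEP. The part of red cell RNA in the Slc4a1 signal was not tested, and nothing in the files says which isoform either probe detects.

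**Figure D3:**
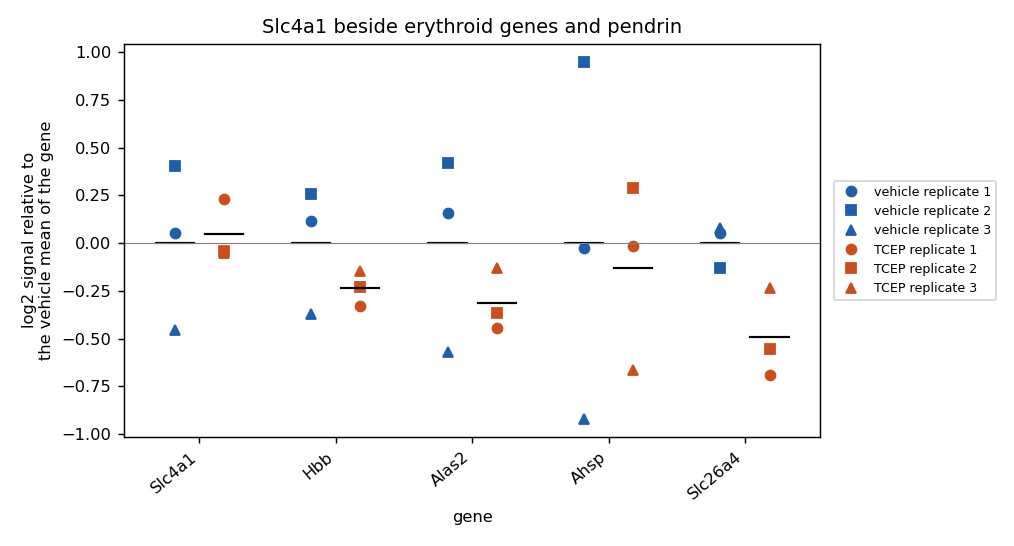
Log2 signal on each array relative to the vehicle mean (y axis) for Slc4a1, the erythroid genes Hbb, Alas2 and Ahsp, and pendrin (Slc26a4). Blue symbols are vehicle arrays, orange symbols TCEP arrays and bars group means. Slc4a1 and the 3 erythroid genes are highest on vehicle replicate 2 and lowest on vehicle replicate 3 among the vehicle arrays, and pendrin is not.

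Foxi1, the transcription factor, lay at 3.50, 3.38 and 3.32 in vehicle and at 3.03, 3.21 and 2.54 in TCEP. The groups did not overlap, but TCEP replicate 3 was far below the others, and the difference of -0.47 (SE 0.18) was -0.28 without it. Rhcg, which is also made by principal and connecting tubule cells, was at 2.83, 2.48 and 2.89 in vehicle and at 2.34, 2.18 and 2.63 in TCEP. Its difference was -0.35 (SE 0.16), and the groups overlapped, since TCEP replicate 3 lay above vehicle replicate 2. Rhbg, the basolateral relative of Rhcg, differed by -0.22 (SE 0.10, adjusted p = 0.647).

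Further probes of the same genes gave lower TCEP values too. Of all 16 probes, the brightest of each gene included, 15 had a lower mean and 13 had all TCEP arrays below all vehicle arrays. Over the 19861 named probes well above background on all arrays, the shares were 50.2% and 7.82%. The genes were chosen with this comparison in view, so nothing is read from these counts either. The dimmer probes differed by -0.46 (SE 0.11) for Atp6v1b1, -0.48 (SE 0.13) for Atp6v1g3, -0.54 (SE 0.16) for Slc26a4 and -0.34 (SE 0.11) for Slc4a9. The 2 dimmer Foxi1 probes were at -0.44 and -0.29, and both were again lowest on TCEP replicate 3, at -2.42 and -2.06. The dim second probe of Slc4a1 was at -0.13 (SE 0.23), opposite in sign to the brighter one. Probes of a gene share the RNA and the array, so they are no replicates of the treatment.

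**Figure D4:**
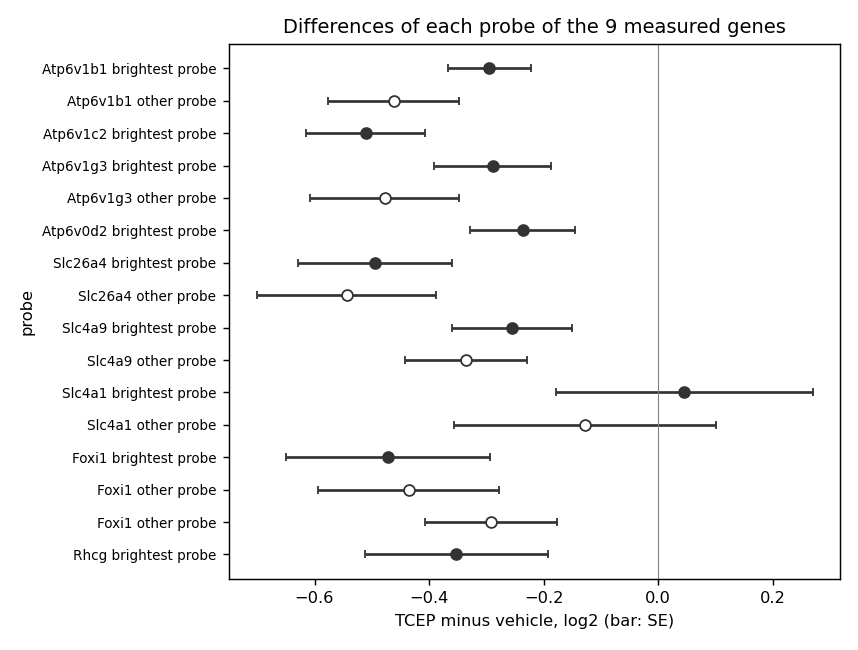
Difference between TCEP and vehicle (x axis, log2) for each of the 16 probes of the 9 genes (y axis), with bars for the SE of the fit. Filled points are the brightest probe of a gene and open points its other probes. Slc4a1 has probes on both sides of 0, and all other probes lie below 0, from -0.54 to -0.24.

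Arrays of 1 group differed from each other in ways that repeated between probes of a gene. Each rat had 1 array, so differences between rats and between arrays cannot be told apart here. Within groups, as deviations of each array from its group mean over 6 arrays, 2 probes of the same gene had a Pearson r of 0.82 to 0.99 in all 8 probe pairs. Between the 36 pairs of different genes r averaged 0.07 and ranged from -0.81 to 0.99, against an average of 0.01 over all pairs of other genes. Slc26a4 and Atp6v1g3 had the closest deviations (r = 0.99) and Foxi1 and Slc4a9 the most opposed (r = -0.81). On TCEP replicate 3 Foxi1 was 0.39 below its group mean, while pendrin was 0.26, Rhcg 0.25, Slc4a9 0.17 and Atp6v1g3 0.17 above theirs. These values rest on 3 rats a group and are a description, with no test.

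Foxi1 is a forkhead factor, and forkhead proteins bind sequences with the core TGTTTA. The 250 bases before the start of each gene were searched for this core on both strands, in the RefSeq promoter table of the GRCr8 build, where 12.1% of 33469 promoters held it. Of the 10 genes 8 were in the table, and 2 of these held it, Atp6v1b1 once and Atp6v1g3 in 2 places, against 0 of 16 common pump subunits. The promoters with the core are shown, with that of pendrin as an example that does not hold it in this window. No link between the core and the differences was tested. Capitals mark the core, and each runs 5′ to 3′ on the strand of the gene.
Atp6v1b1, chr4:117781194-117781443, plus strand: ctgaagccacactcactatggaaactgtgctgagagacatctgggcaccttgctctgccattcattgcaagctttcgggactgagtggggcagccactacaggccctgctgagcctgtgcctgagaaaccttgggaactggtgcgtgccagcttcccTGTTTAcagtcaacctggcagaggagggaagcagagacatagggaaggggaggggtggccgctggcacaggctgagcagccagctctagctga
Atp6v1g3, chr13:52362082-52362331, plus strand: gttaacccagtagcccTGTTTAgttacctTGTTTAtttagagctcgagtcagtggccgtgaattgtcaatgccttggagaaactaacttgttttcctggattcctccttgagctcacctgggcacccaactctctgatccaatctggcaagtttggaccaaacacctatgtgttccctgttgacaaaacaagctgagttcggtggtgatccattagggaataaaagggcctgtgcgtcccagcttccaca
Slc26a4, chr6:53873217-53873466, minus strand: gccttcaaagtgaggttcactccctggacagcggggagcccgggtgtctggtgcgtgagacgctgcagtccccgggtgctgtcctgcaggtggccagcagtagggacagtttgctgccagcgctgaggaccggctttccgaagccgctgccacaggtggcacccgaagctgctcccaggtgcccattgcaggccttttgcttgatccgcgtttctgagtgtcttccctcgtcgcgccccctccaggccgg
The core of Atp6v1b1 begins 93 bases before the start, and those of Atp6v1g3 begin 234 and 221 bases before it. A match of letters is not a binding site, and no match says only that these letters are not in this window.

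Other genes known from intercalated cells, in a list chosen with earlier results of these data known, also mostly had lower means. Of 24 such genes 21 were tested, and 18 of the 21 were lower, with a median of -0.19 (-0.12 without TCEP replicate 2). With limma 0 of the 21 passed the adjusted threshold, and 2 had an unadjusted p under 0.05, a share near the 8.33% of all genes. The 4 genes linked to type B cells were all lower. Slc4a8, a sodium-driven bicarbonate exchanger that works beside pendrin, was dim, at -2.32, -2.12 and -2.55 in vehicle and at -2.81, -3.12 and -2.86 in TCEP, without overlap. Its difference was -0.60 (SE 0.14, adjusted p = 0.535). Insrr, an alkali-sensing receptor, differed by -0.48 (SE 0.23, adjusted p = 0.647), with TCEP replicate 3 inside the vehicle range. Hmx2, a homeobox gene, was at -0.22, and at -0.46 without vehicle replicate 2 and -0.09 without vehicle replicate 1. The oxoglutarate receptor gene Oxgr1 was dimmer than Slc4a8, with a mean level of -3.61 in vehicle and -3.80 in TCEP. Its difference was -0.19, and it was -0.33 without TCEP replicate 1 and -0.06 without TCEP replicate 2.

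The 5 tested genes linked to type A cells also had means below 0, with a median of -0.12 against -0.35 for the 4 of type B, but 3 of the 5 changed sign when a single array was left out. The contrast between types was not tested. Among the type A genes, Adgrf5, an adhesion receptor, lay at 1.84, 1.91 and 2.00 in vehicle and at 1.79, 1.56 and 1.81 in TCEP, a difference of -0.20 (SE 0.09, adjusted p = 0.643). The vasopressin receptor gene Avpr1a differed by -0.36 (SE 0.18, adjusted p = 0.655), and by -0.18 without TCEP replicate 2. The receptor kinase gene Kit was at -0.12 and the water channel gene Aqp6 at -0.05, and without vehicle replicate 2 they were at 0.009 and 0.10. Aqp6 was at -0.28 without vehicle replicate 3. The transcription factor gene Dmrt2 was at -0.01, at 0.13 without TCEP replicate 2 and at 0.02 with normexp. Of the 12 tested genes shared between types, 9 were lower. Hepacam2, an adhesion protein, was at 0.33, 0.36 and 0.55 in vehicle and at 0.01, -0.25 and 0.18 in TCEP (difference -0.43, SE 0.13, adjusted p = 0.547), and the membrane carbonic anhydrase gene Car12 differed by -0.24 (SE 0.11, adjusted p = 0.634). Car2, the cytosolic carbonic anhydrase that supplies protons to the pump and is made in many tubule cells, was at 0.03 (SE 0.07, adjusted p = 0.940), and at -0.01 without TCEP replicate 2.

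Markers of neighbouring tubule cells mostly had lower means too, and none passed the adjusted threshold. Principal cells, which share the collecting duct, had 12 of 13 tested markers lower (median -0.25). Their list mean lay at 0.12, -0.23 and 0.11 in vehicle and between -0.26 and -0.12 in TCEP, so vehicle replicate 2 lay inside the treated range. Gata2, a transcription factor of these cells, differed by -0.52 (SE 0.11, adjusted p = 0.533) and Avpr2, the vasopressin V2 receptor, by -0.33 (SE 0.13, adjusted p = 0.598), while Aqp2, the water channel that defines them, was at -0.09. Of 7 tested markers of the distal convoluted and connecting tubules 6 were lower, with a median of -0.23, and included Calb1, which encodes calbindin, at -0.58 (SE 0.21, adjusted p = 0.566). The mean of the 9 pump, exchanger, Foxi1 and Rhcg genes lay between -0.03 and 0.05 in vehicle and between -0.36 and -0.26 in TCEP. Whether these 9 genes differ more than those of their neighbours was not tested.

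Macrophages carry d2 and other pump subunits too, and 9 of 10 tested macrophage markers were lower (median -0.17). Their mean lay between -0.28 and 0.15 in vehicle and between -0.26 and -0.16 in TCEP. Vehicle replicate 1 was lowest for the macrophage list and highest among the vehicle arrays for Atp6v0d2. Tcirg1, the a3 subunit abundant in macrophages and osteoclasts, differed by 0.10 (SE 0.11, adjusted p = 0.819). The part of macrophage RNA in the pump signals was not tested.

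**Figure D5:**
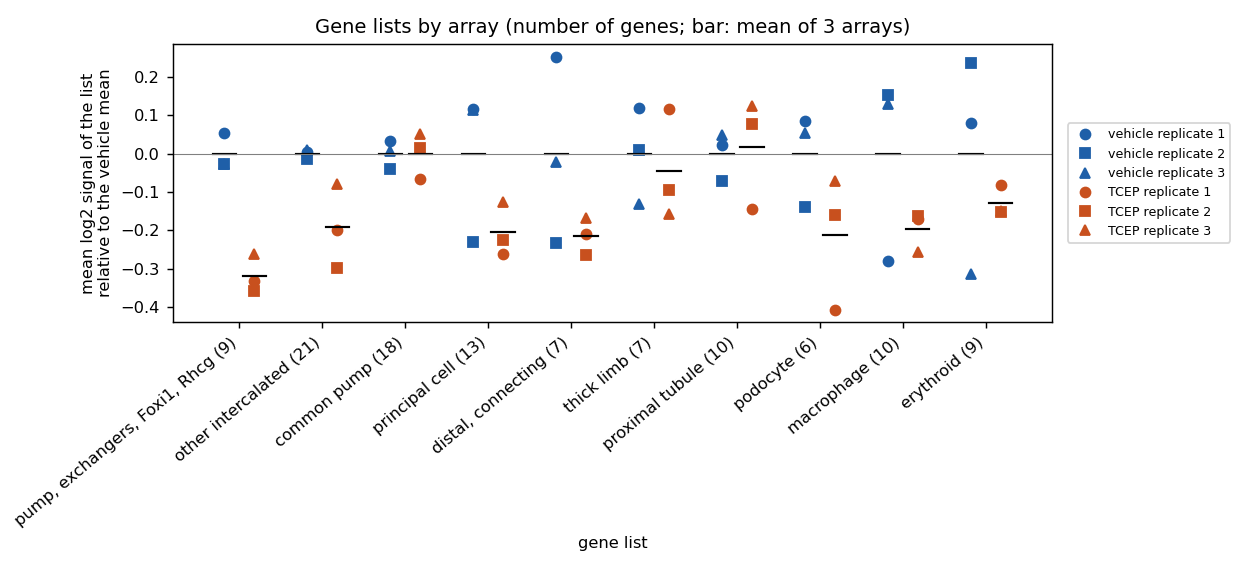
Mean log2 signal of each gene list on each array, relative to the vehicle mean (y axis), with the number of genes in brackets (x axis). Blue symbols are vehicle arrays, orange symbols TCEP arrays and bars group means. The arrays of the 2 groups do not overlap for the pump, exchanger, Foxi1 and Rhcg genes, nor for the other intercalated genes. They overlap for the other 8 lists shown. For the principal cell list and the distal and connecting list the overlap lies at vehicle replicate 2 (-0.23 in both). The pump, exchanger, Foxi1 and Rhcg genes were chosen with this difference known. All lists were chosen with earlier results of these data known, so nothing is read from the overlap.

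The genes whose levels over the 6 arrays were most like the mean of the 9 were Trerf1 (r = 0.997), Prl6a1 (0.994), Fundc2 (0.988), Urgcp (0.985) and Ppig (0.984). With 6 arrays and 11795 genes, 48 genes reached r above 0.95, so this list is a description of these arrays. On deviations within groups, the most alike were Lamc3 (r = 0.999), Timeless (0.994), Tia1 (0.991), Cpt2 (0.991) and Ndufa9 (0.990). None of these 10 genes was on the lists of kidney cell types used here.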

How the data were processed

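Agilent Feature Extraction made the authors' scanner files, in version 10.7.1.1 per the file headers and 10.7 in the submitters' processing notes. Its deposited processed signal, a linear intensity from which background had been subtracted, had no scaling between arrays. Median spot and background intensity and flags of 0 or 1, deposited as other values, were also used. The deposited series matrix holds the same signal as a ratio to a constant per array, which lay within 0.146% of that array's 75th percentile (column medians 0.104 to 0.107). Centring of genes was not seen.

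Each array's log2 75th percentile (61657 probes, controls left out) was subtracted from its log2 processed signals, and 12 outlier-flagged probes were dropped. Probes were named by unversioned accession through the RefSeq table of GRCr8 (27453 probes, 15284 genes). The brightest probe stood for a gene, tested if every array of 1 or both groups read it well above background (11804 genes). The groups were compared by limma (version 3.58.1, R 4.3.3; lmFit, eBayes, two-sided, group only, Benjamini-Hochberg, threshold 0.05), a script tested on simulated data. Per the series' design text the rats are biological replicates. The number of arrays limits the precision. No pair of arrays was identical.

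The genes described and the lists were chosen with earlier results of these data known. Genes named were the 10, their common partner isoforms, up to 4 genes of each other list with the smallest p, and the genes of most alike profile; further common pump and intercalated genes, Hmx2, Oxgr1, Kit, Aqp6, Dmrt2, Rhbg, Car2, Aqp2, Tcirg1 and Ahsp among them, were named after their values were seen. Alternatives were quantile normalization, no scaling, normexp (offset 50, median signals), no filter, detection on all 6 arrays, the mean over probes, the series matrix, a replicate block and leaving out each array. Tables used pandas 2.3.3 and numpy 2.4.6 under Python 3.11.15, and figures matplotlib 3.10.9.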

Additional observations from a re-analysis of the deposited data

How the results depend on the processing

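The median difference of the 9 genes was -0.29 and stayed below 0 in every setting, at -0.36 with normexp, -0.38 as the mean over probes and between -0.35 and -0.26 when single arrays were left out. Of these genes 8 or 9 of 9 were lower in all 14 alternatives. The median of the common pump subunits lay between -0.035 and 0.040 and that of the other intercalated genes between -0.22 and -0.12 when single arrays were left out. With limma 0 genes passed the adjusted threshold in any setting, with 694 to 1568 at an unadjusted p under 0.05 (1568 with normexp, 983 as reported). Genes whose groups do not overlap numbered 1842, and 2724 to 3301 without 1 array, where fewer arrays make overlap rarer by construction. The replicate block gave 0 genes at the threshold, a median of -0.29 and 850 genes at an unadjusted p under 0.05. Same-numbered rats deviated with r = -0.15, -0.10 and 0.23, so the numbers were not taken as pairs, and it is not the case that every array correlates best with its own number. Genes near background are least certain. With 3 rats a group, differences below the SE given are not detectable, and differences well above it need not be either. With limma, Gata2 at -0.52 (SE 0.11) had an adjusted p of 0.533.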

Other observations

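Acid-base genes outside the intercalated cells also mostly had lower means. Since no gene passed the adjusted threshold, that threshold does not set them apart from the intercalated genes. Of 10 genes for bicarbonate return and ammonia production in the proximal tubule 8 were lower, with a median of -0.09 and 0 past the adjusted threshold with limma (0 at an unadjusted p under 0.05). Slc4a4, the basolateral sodium-bicarbonate cotransporter, differed by -0.24 (SE 0.14, adjusted p = 0.690) and Slc4a2, the anion exchanger AE2, by -0.15 (SE 0.06, adjusted p = 0.611), while Slc9a3, the apical sodium-proton exchanger, was at 0.34 (SE 0.26, adjusted p = 0.755) and 0.08 as the mean over its probes.

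Among the remaining marker lists, proximal tubule markers had a median of 0.03 (4 of 10 lower), thick limb markers -0.01 (4 of 7), podocyte markers -0.27 (6 of 6), neutrophil markers -0.59 (4 of 4), medullary markers 0.01 (2 of 5) and urothelial markers 0.13 (1 of 3). Among neutrophil genes S100a9 was at -1.02 (SE 0.73), and at -0.23 without vehicle replicate 2.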
